A study of Mus musculus with 6 samples.

Results

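The cytosolic ribosomal protein genes of neonatal lung ILC2s (group 2 innate lymphoid cells) were taken by name. Members were the genes called Rpl, Rplp or Rps with a number, with or without a closing a, x, y or l, and Rpsa. Of the 55394 genes in the tables, 83 met this rule, with 51 in the large subunit and 32 in the small subunit. The mouse annotation GENCODE M21 gives the same symbol to all 83, and lists 80 as protein coding and Rpl6l, Rpl32l and Rps4l as pseudogenes. Among the genes that the rule leaves out are Rps3a1, Fau, Rpl36al, Rpl22l1 and Rpl7l1, which also code for ribosomal proteins or their paralogues. It also leaves out genes whose names mark them as ribosomal protein pseudogenes, of which 306 were listed here. The 12 such entries named after Rpsa are not in that list.

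SMART-seq, which amplifies full-length cDNA from few cells, was run on 6 bulk libraries of 1000 sorted lung ILC2s each. All pups were wild type C57BL/6 neonates. The Con group held 3 libraries from pups of control dams, which the study calls PBS dams for these libraries. The Abx group held 3 libraries from pups of dams that drank ampicillin, metronidazole, neomycin and vancomycin from gestation day 10 to 14 and were then taken off the antibiotics until birth. The sort took CD45+ cells that lacked lineage markers of T cells, B cells, NK cells, myeloid cells and red cells and carried CD90.2 and CD25. The age in days, the sex and the number of pups behind a library are not given in the sources used here, so p-values measure the spread between these libraries, which may be technical.

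Levels are FPKM, in which sequenced fragments are scaled to gene length and library depth, which allows genes to be set side by side only as far as their gene models and copies allow. Total FPKM was 420941 to 449523 in Con and 431613 to 489262 in Abx, and the number of reads is unknown. The libraries differed in other ways too. Between 8574 and 9203 genes reached 1 FPKM in Con, against 7074 to 8193 in Abx. None of the 12 ILC2 markers checked was at 0 throughout, and together they reached 2840 to 3245 FPKM in Con and 2120 to 2733 in Abx. At an unadjusted p under 0.05, 3 of the 11 tested (Areg, Icos and Arg1) were lower in Abx and 0 higher. Il1rl1, the IL-33 receptor chain, had 0.06, 0.89 and 2.94 FPKM in Con, against 0.03, 0.01 and 0.03 in Abx, so this marker was near 0 in most libraries. B cell markers summed to 653 to 819 FPKM in Con and 2045 to 2489 in Abx. At an unadjusted p under 0.05, 5 of the 11 tested were higher in Abx and 0 lower. The groups did not overlap for 6 of them higher in Abx and 1 lower. The lower one was Cd79b, with 69.5, 117 and 69.8 FPKM in Con and 56.4, 31.0 and 57.4 in Abx. Ly6d had the largest change, with means of 70.2 FPKM in Con and 655 in Abx. T cell markers summed to 350 to 375 FPKM in Con and 563 to 612 in Abx, with 3 of 8 higher and 0 lower at that threshold. The groups did not overlap for 5 of the 8 higher in Abx and 1 lower. The lower one was Zap70, with means of 86.8 FPKM in Con and 61.3 in Abx. Pax5, which sets B cell identity, was at 0 in Con and at 0 to 2.33 FPKM in Abx. Of 5 NK cell markers Gzma alone was above 0 in Abx, with 13.8, 10.8 and 0 FPKM in Con and 224, 218 and 215 in Abx, and Klrb1c and Prf1 were at 0 throughout. Erythroid markers summed to 6166 to 14562 FPKM in Con and 3019 to 8511 in Abx. The part of other cells in the levels below was not tested, and in bulk libraries fewer cells of a type and less RNA per cell cannot be told apart.

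A cytosolic ribosome is built from rRNAs and a fixed set of proteins, nearly all of them present once per ribosome. The large subunit holds the peptidyl transferase centre, where peptide bonds are made, the tunnel through which the new chain leaves, and a flexible stalk of P proteins that recruits translation factors. The small subunit binds the mRNA and reads its codons. The mRNAs of ribosomal proteins open with a short run of pyrimidines, the TOP motif, through which mTOR signaling sets their translation, and in proliferating lymphocytes they are among the most abundant messages.

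The members held a similar share of all FPKM in both groups. In Con they made up 6.39%, 6.14% and 6.95% of it, against 6.86%, 7.53% and 6.02% in Abx. The highest and the lowest share were both found in Abx. Means were 6.49% ± 0.415 (SD, n = 3) in Con and 6.80% ± 0.756 (SD, n = 3) in Abx, and they differed by less than the spread between libraries (exact two-sided permutation test, p = 0.7, n = 3 per group, where the smallest p possible is 0.1). Without Abx 2 the difference turned from 0.308 to −0.0543 percentage points. Between 13 and 18 members stood among the 100 most abundant genes of each library.

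The large subunit genes made up 4.13%, 3.98% and 4.52% of total FPKM in Con and 4.11%, 4.71% and 3.77% in Abx (exact two-sided permutation test, p = 0.9, n = 3 per group). The small subunit genes made up 2.26%, 2.16% and 2.43% in Con, against 2.75%, 2.81% and 2.24% in Abx (exact two-sided permutation test, p = 0.3, n = 3 per group). The small subunit share of Abx 1 and Abx 2 lay above all Con libraries, while that of Abx 3 lay among them.

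The balance between the subunits separated the groups. In Con the log2 ratio of summed large to small subunit FPKM was 0.87, 0.89 and 0.89, against 0.58, 0.74 and 0.75 in Abx. The Con libraries were nearly identical and all Abx libraries lay below them. The mean was 0.88 ± 0.01 (SD, n = 3) in Con and 0.69 ± 0.09 (SD, n = 3) in Abx, a difference of −0.19 that reached p = 0.1, the smallest that an exact two-sided permutation test allows with n = 3 per group.

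The lower ratio rested largely on abundant genes. Of the small subunit genes, 22 had a higher mean share of total FPKM in Abx and 10 a lower one. The gains summed to 0.399 percentage points, of which the 5 largest added 0.224, and the losses to −0.0798, for a net 0.319. Among the genes that gained, Rps27 and Rps15, which both sit in the small subunit, added 0.0512 and 0.0452 percentage points. In the large subunit the gains of 30 genes summed to 0.251 percentage points and the losses of 19 genes to −0.262, with Rpl32 (−0.0566) and the stalk gene Rplp1 (−0.0545) losing most. Without the 5 most abundant genes of each subunit the difference of the log2 ratio was −0.04 (exact two-sided permutation test, p = 0.2). When the sum was replaced by the median over each subunit's members at 10 FPKM or more in every library, it was 0.02 (exact two-sided permutation test, p = 0.9). The fold changes of single genes were nonetheless larger in the small subunit, with a median log2 fold change of 0.32 over 32 genes against 0.16 over 48 genes of the large subunit, and this gap was not tested.

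**Figure D1:**
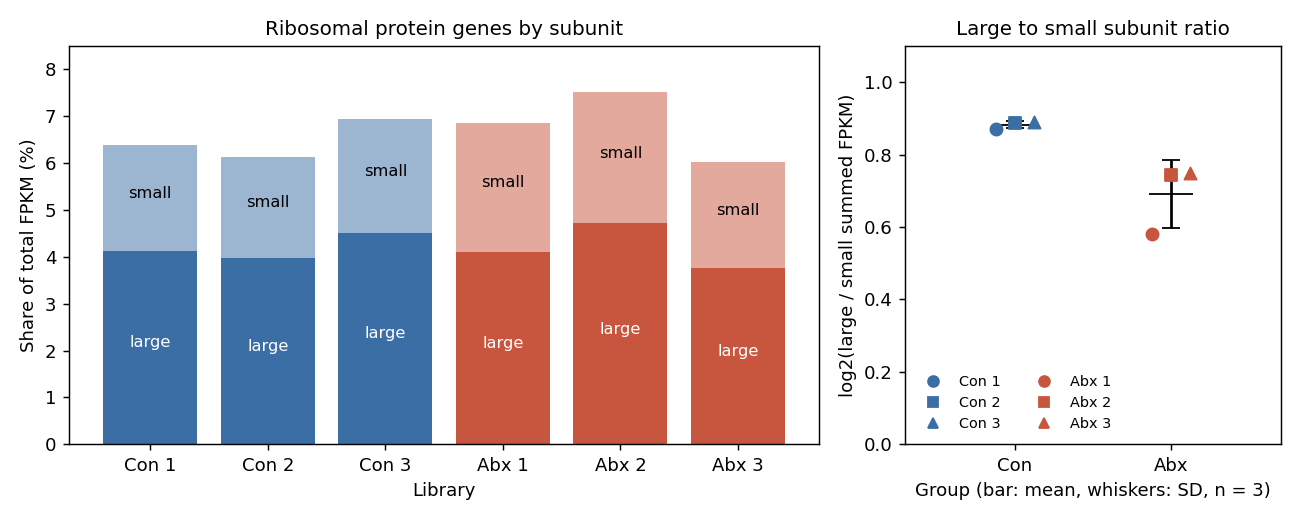
Share of total FPKM (%, bars from 0) held by large and small subunit genes in each library, and the log2 ratio of large to small subunit summed FPKM by group (points are libraries, bars are means, whiskers are SD, n = 3). The total share spans 6.02% to 7.53% with the groups mixed, while the log2 ratio is 0.87 to 0.89 in Con and 0.58 to 0.75 in Abx.

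Levels within a subunit spread widely. Of the 83 members, 78 were at 10 FPKM or more in every library, and among these the lowest single value was 13.7 FPKM, for Rpl22 in Con 2. The highest was 2320 FPKM, for Rpl36 in Abx 2. Between 22.1% and 27.1% of the members' summed FPKM came from their 5 most abundant genes. The SD of log2(FPKM + 1) over the large subunit genes was 2.46, 2.47 and 2.36 in Con, against 2.39, 2.50 and 2.42 in Abx (exact two-sided permutation test, p = 1.0, n = 3 per group). Over the small subunit genes it was 1.49, 1.39 and 1.60 in Con, against 1.99, 1.93 and 1.34 in Abx (exact two-sided permutation test, p = 0.4, n = 3 per group). The high values of Abx 1 and Abx 2 went with a single gene, Rps4l, since over the 31 small subunit genes at 10 FPKM or more in every library the difference in SD was −0.06 instead of 0.26. Over all 78 members at that level the SD was 1.52, 1.52 and 1.51 in Con, against 1.40, 1.47 and 1.46 in Abx, with all Abx libraries below Con (difference −0.08, exact two-sided permutation test, p = 0.1, the smallest possible with n = 3 per group).

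The rank order of the members was similar in all libraries. Spearman's rho over the 83 members was 0.9856 to 0.9863 between Con libraries, 0.957 to 0.964 between Abx libraries and 0.948 to 0.980 across the groups. Pearson's r of log2(FPKM + 1) over the 83 members was 0.981 to 0.991 between Con libraries, 0.947 to 0.983 between Abx libraries and 0.941 to 0.979 across the groups. These are descriptions across genes, which share gene lengths and processing and are not replicates. The Con libraries were also tighter gene by gene, with a median coefficient of variation of 12.8% against 22.7% in Abx. Of the 78 genes at 10 FPKM or more throughout, Abx 2 held the highest value for 45 and Abx 1 for 21, while Abx 3 held the lowest value for 28 and Con 2 for 20. These counts were not set against those of all genes. Total FPKM was highest in Abx 2 (489262) and lowest in Con 3 (420941), with 423167 in Con 2 and 431613 in Abx 3. The part of the totals in these counts was not tested.

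At the top of the large subunit stood Rpl36, a large subunit protein, with 1793, 1724 and 2023 FPKM in Con and 1579, 2320 and 1625 in Abx. It was the most abundant member in all 6 libraries. Rpl32, another large subunit protein, had the third highest mean of the subunit, after Rplp1, with 1674, 1211 and 1656 FPKM in Con and 1214, 1733 and 1109 in Abx. Both overlapped between the groups and neither differed beyond its spread.

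The stalk showed unequal levels for proteins that act together. Rplp0, which anchors the stalk, had 1103, 995 and 1150 FPKM in Con and 1195, 1349 and 1065 in Abx. Rplp1, which binds Rplp0 as a dimer with Rplp2, reached 1634, 1551 and 1780 FPKM in Con and 1157, 2162 and 1249 in Abx. Rplp2 itself was listed at only 106, 87.5 and 113 FPKM in Con and 161, 184 and 156 in Abx. The partners of a dimer thus differed several-fold in FPKM within every library. Rpl12, at the base of the stalk, was lower still, with 48.6, 31.7 and 44.2 FPKM in Con and 92.0, 85.3 and 35.1 in Abx.

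The annotated exons of a gene, all isoforms joined, were longer where the FPKM was lower (Spearman's rho −0.55 over 78 members, a description across genes). Those of Rplp2 span 2072 bases and those of Rps20 span 4080. Levels under another gene model were not computed, so the order of levels between members is tied to this annotation.

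Rpl5 and Rpl11, which join the small 5S rRNA and can bind Mdm2 when assembly stalls, differed in level, with Rpl11 above Rpl5 in all 6 libraries. Rpl5 stood at 94.3, 109 and 140 FPKM in Con and 163, 107 and 118 in Abx. Rpl11 had 186, 127 and 167 FPKM in Con and 219, 172 and 152 in Abx. Neither separated the groups.

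Of the proteins near the catalytic centre, Rpl3 was among the steadiest members, with 165, 181 and 177 FPKM in Con and 175, 203 and 153 in Abx. Rpl10, a late-joining protein coded on the X chromosome, reached 224, 183 and 199 FPKM in Con and 229, 210 and 125 in Abx. Both ranges overlapped. For the large subunit member Rpl23, FPKM values were 112, 112 and 157 in Con, against 239, 144 and 105 in Abx. Those of Rpl39, which lines the exit tunnel, were 100.1, 143 and 115 in Con, against 77.7, 172 and 154 in Abx. Rpl41, the smallest ribosomal protein, had 637, 441 and 687 FPKM in Con and 555, 720 and 441 in Abx.

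Rps27, a zinc-binding protein, and Rps29 were among the most abundant small subunit genes. Rps27 reached 995, 820 and 1090 FPKM in Con and 1362, 1492 and 945 in Abx. Rps29, which also binds zinc, stood at 954, 845 and 964 FPKM in Con and 1082, 1319 and 765 in Abx. In both genes the Abx libraries 1 and 2 lay above all Con libraries, and Abx 3 did not. At the low end stood Rps12 with 20.8, 28.3 and 17.5 FPKM in Con and 18.6, 34.1 and 22.3 in Abx. Rps15a had 35.2, 38.1 and 49.1 FPKM in Con and 33.0, 54.2 and 52.8 in Abx.

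Rps6, the small subunit protein that S6 kinases phosphorylate, reached 519, 438 and 622 FPKM in Con and 491, 588 and 586 in Abx. Rps19, the gene most often mutated in Diamond-Blackfan anemia, stood at 357, 282 and 373 FPKM in Con and 330, 340 and 220 in Abx. Rps14, whose loss marks the 5q- syndrome, had 549, 431 and 465 FPKM in Con and 563, 844 and 502 in Abx. None of these 3 disease or signaling genes separated the groups.

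At the mRNA entry of the small subunit, Rps2 averaged 400 ± 41.5 FPKM in Con and 383 ± 56.7 in Abx, and Rps3 averaged 232 ± 19.6 and 229 ± 28.3 (SD, n = 3 per group). Rpsa, also known as the laminin receptor precursor, reached 173, 179 and 184 FPKM in Con and 236, 290 and 180 in Abx. Rps27a, made as a fusion with ubiquitin, stood at 148, 164 and 193 FPKM in Con and 202, 252 and 147 in Abx. In Rpsa and Rps27a, Abx 1 and Abx 2 lay above all Con libraries and Abx 3 lay within the Con range or below it. In Rps2 and Rps3 the groups overlapped, and Abx 1 held 397 FPKM of Rps2 and 210 of Rps3.

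**Figure D2:**
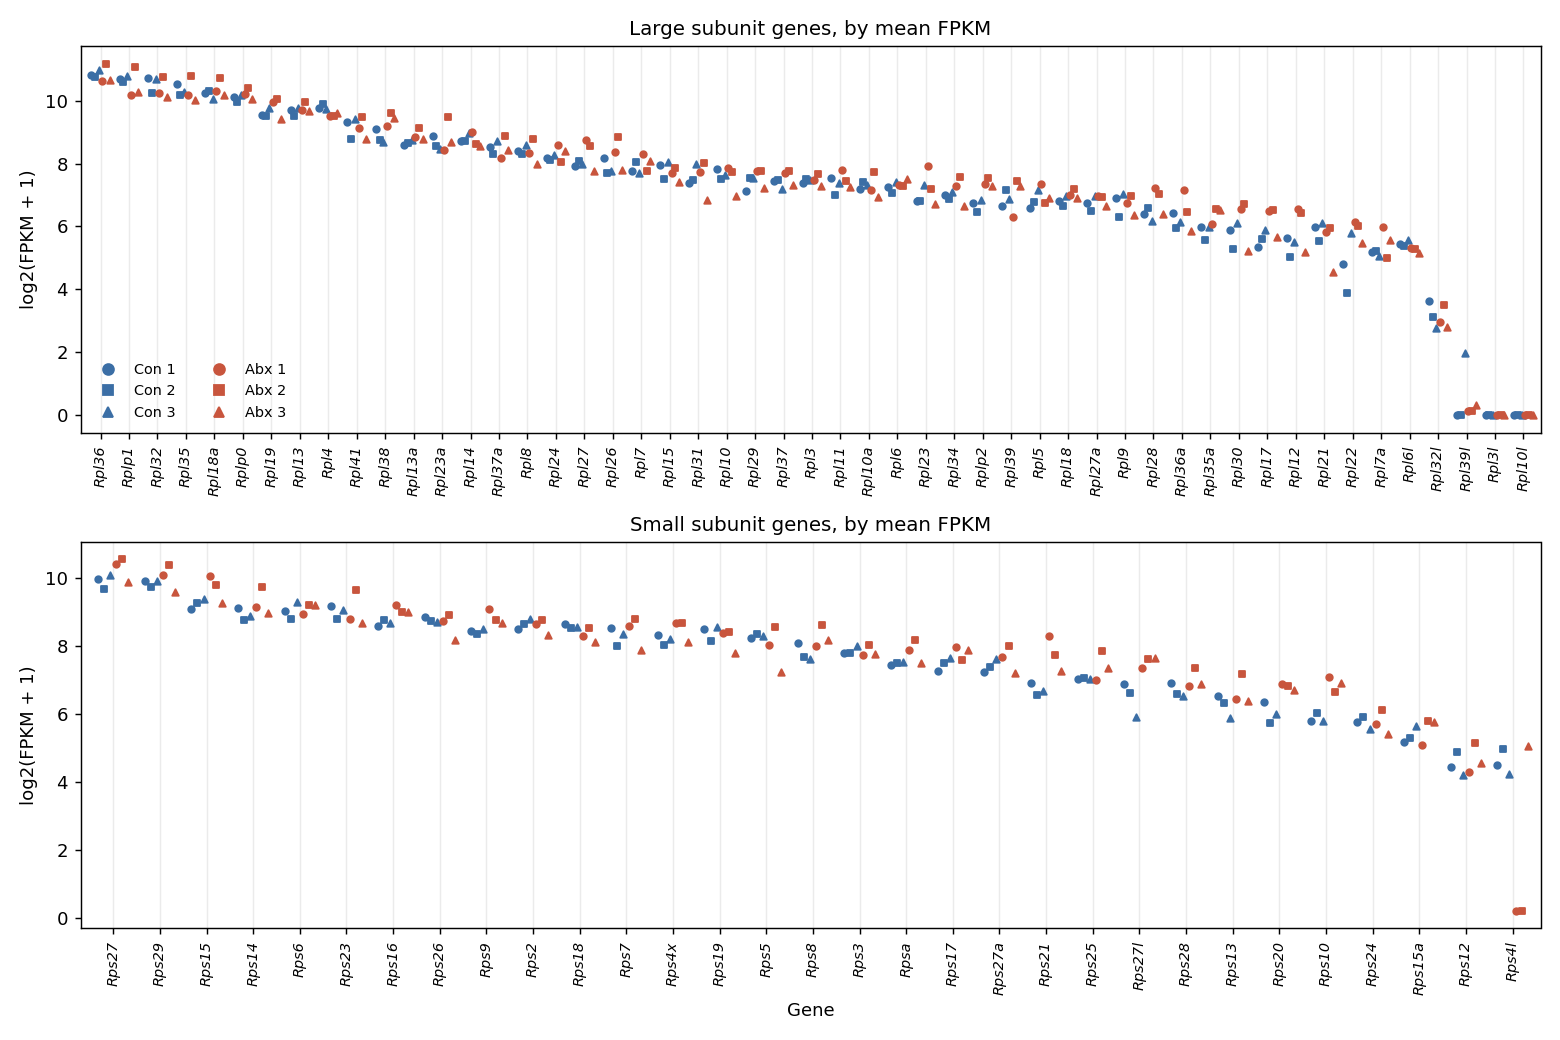
Level of 82 of the 83 members as log2(FPKM + 1), by subunit and in order of mean FPKM (each point is 1 library). The order is similar in the 6 libraries, Rpl3l and Rpl10l are at 0 throughout, and Rps4l is at 0.15 FPKM in Abx 1 and Abx 2 but 31.9 FPKM in Abx 3.

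Whether maternal antibiotics changed single ribosomal protein genes was tested with limma on log2(FPKM + 1) over the 8718 genes that reached 1 FPKM in 3 libraries or more. Of the members, 80 entered the test, 48 of the large and 32 of the small subunit. Rpl3l, Rpl10l and Rpl39l were too low. With calls set at an adjusted p under 0.05 and more than a 2-fold change, 0 members were called in either direction, where the background over all genes tested was 0.0459% higher and 0.0115% lower in Abx. At an unadjusted p under 0.05 there were 7 members higher in Abx (background 4.74%) and 0 lower (background 6.25%).

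The count depended on single libraries. It was 3 without Con 2 and 17 without Abx 3, and 1 member was lower without Abx 2 or without Abx 3. Over all genes tested in these fits, 308 of 7956 were higher without Con 2 and 468 of 8194 without Abx 3. Those lower were 822 of 8065 without Abx 2 and 765 of 8194 without Abx 3. The libraries of the groups did not overlap for 11 members higher in Abx (background 8.49%) and 3 lower (background 8.73%), of 80. The median log2 fold change was 0.18 over the 80 members, 0.16 over the large and 0.32 over the small subunit genes, beside −0.06 over all genes tested. It was 0.07 without Abx 2 and 0.30 without Abx 3, and 0.10 after quantile normalization, which moved the median of all genes to 0.03. Positive changes numbered 55 and negative changes 25.

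**Figure D3:**
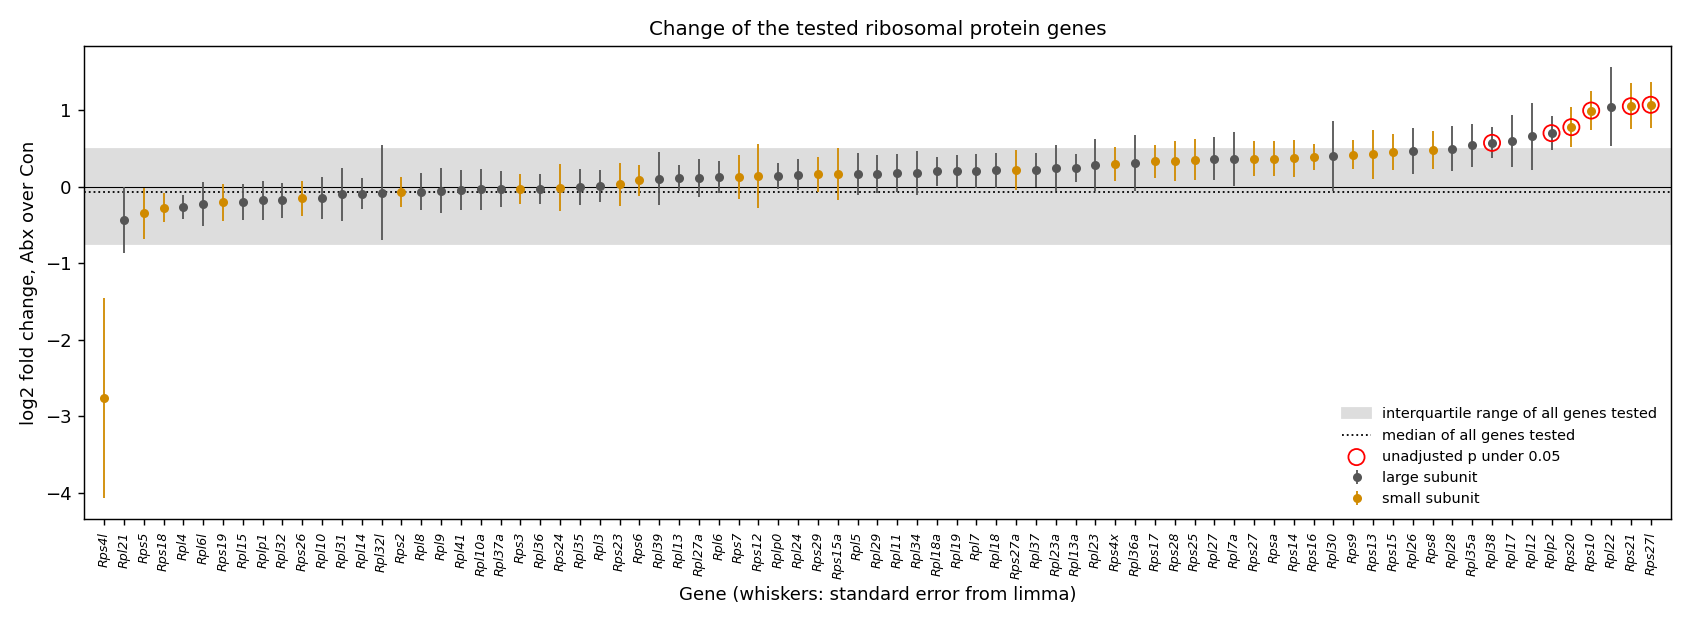
log2 fold change (Abx over Con, whiskers are limma standard errors) of 79 of the 80 tested members in order of size, over a band that holds the interquartile range of all genes tested and a dotted line at their median of −0.06. The median over all 80 is 0.18, circles mark 6 genes with an unadjusted p under 0.05, and Rps4l stands apart at −2.76.

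Of the 7 genes, 6 are described here, of which 4 belong to the small subunit. Rps27l, a paralogue of Rps27 that p53 induces, had 117, 96.5 and 58.9 FPKM in Con and 161, 196 and 200 in Abx. All Abx libraries lay above all Con libraries. The log2 fold change was 1.07 ± 0.30 (SE), with a limma adjusted p of 0.183.

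Rps21, a small subunit protein, reached 118, 93.5 and 101 FPKM in Con and 315, 213 and 151 in Abx. The Abx libraries were widely spread, yet each was above Con. The log2 fold change was 1.06 ± 0.30 (SE, limma adjusted p = 0.195). Rps10, near the mRNA entry of the small subunit, stood at 54.5, 63.5 and 54.8 FPKM in Con and 133, 97.9 and 119 in Abx. Its log2 fold change of 0.999 ± 0.251 (SE) came with the lowest limma adjusted p among the members, 0.141. Exons of Rps10 overlap those of RPS10-NUDT3 on the same strand and of Gm15420 on the other, and 4 pseudogene entries carry its name, so its reads could have been split.

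Rps20, in the head of the small subunit, had 80.7, 51.6 and 62.2 FPKM in Con and 116, 112 and 103 in Abx. The groups were well apart, with a log2 fold change of 0.78 ± 0.26 (SE, limma adjusted p = 0.284).

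In the large subunit Rplp2, the stalk gene given above, averaged 102 ± 13.4 FPKM in Con and 167 ± 15.3 in Abx (SD, n = 3 per group). Its log2 fold change was 0.70 ± 0.22 (SE, limma adjusted p = 0.247), whereas Rplp1, its partner, had −0.18 ± 0.25. Rpl38, known for its part in the translation of Hox mRNAs in embryos, stood at 553, 432 and 407 FPKM in Con and 588, 781 and 703 in Abx. The log2 fold change of Rpl38 was 0.58 ± 0.20 (SE, limma adjusted p = 0.313).

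The other 4 genes with Abx above Con throughout did not reach that threshold. Rpl13a, which also acts outside the ribosome as a repressor of inflammatory mRNAs, had 387, 402 and 427 FPKM in Con and 460, 556 and 435 in Abx. Rps16, Rps9 and Rpl35a, chosen after their values were seen, had log2 fold changes of 0.39, 0.42 and 0.54. Over these 4 genes the limma adjusted p ran from 0.458 to 0.698.

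A large mean change did not always separate the libraries. Rpl22 had a log2 fold change of 1.05 ± 0.51 (SE, limma adjusted p = 0.519), near that of Rps27l, but its Abx 3 library lay below Con 3. Rpl12, at the stalk base, had 0.66 ± 0.43 (SE, limma adjusted p = 0.658), with Abx 3 again among the Con values. The standard errors of both genes were larger than those of the 6 genes described above.

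In 3 members all Abx libraries lay below Con, by little. Rpl4, which reaches into the exit tunnel, reached 870, 953 and 859 FPKM in Con and 733, 728 and 777 in Abx (log2 fold change −0.26 ± 0.16 SE, limma adjusted p = 0.629). Rps18, in the head of the small subunit, stood at 399, 369 and 374 FPKM in Con and 311, 365 and 276 in Abx, with a log2 fold change of −0.27. Rpl6l, a processed pseudogene of Rpl6, had 42.4, 40.9 and 46.2 FPKM in Con and 38.4, 37.7 and 34.7 in Abx.

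Exons of 37 members overlap those of another annotated gene, such as a small nucleolar RNA, and the sources used here do not say that reads were counted by strand. Among the 43 tested members with no such overlap, 3 had an unadjusted p under 0.05, all higher in Abx, namely Rps21, Rps27l and Rpl38. These 3 were 6.98% of the 43, where the background over all genes tested was 4.74% higher and 6.25% lower.

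**Figure D4:**
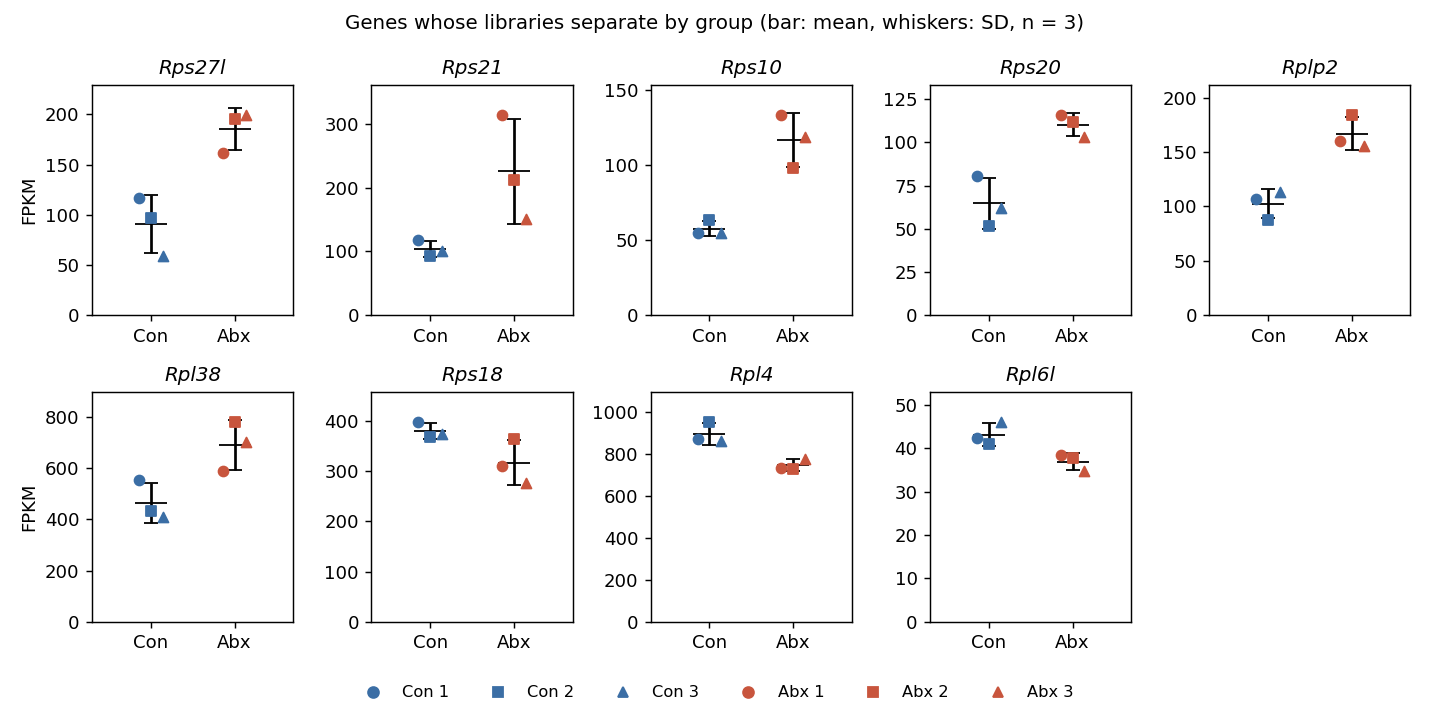
FPKM per library (points, axes from 0) of 6 members with an unadjusted p under 0.05 and the 3 members with all Abx libraries below Con (bars are means, whiskers are SD, n = 3). Rps10 goes from 57.6 ± 5.10 to 117 ± 17.8 FPKM, whereas Rpl4 goes from 894 ± 51.2 to 746 ± 26.9.

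The start regions of 5 of these 6 genes, which could show whether they share a sequence, were taken from RefSeq (GRCm38.p6). Each runs from 70 bases before the start site to 30 bases from it on, in the direction of the gene, and capitals mark CTTTC, read on the strand of the gene, and CGGAAG, the core of sites for ETS factors, read on both strands.
Rps27l, chr9:66946016-66946115, plus strand: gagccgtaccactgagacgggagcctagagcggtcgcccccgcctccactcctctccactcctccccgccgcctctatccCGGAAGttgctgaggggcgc
Rps21, chr2:180257309-180257408, plus strand: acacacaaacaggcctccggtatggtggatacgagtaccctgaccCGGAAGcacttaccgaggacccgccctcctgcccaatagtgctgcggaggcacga
Rps10, chr17:27635215-27635314, minus strand: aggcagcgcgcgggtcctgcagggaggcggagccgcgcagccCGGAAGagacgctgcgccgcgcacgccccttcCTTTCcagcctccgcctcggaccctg
Rplp2, chr7:141447581-141447680, plus strand: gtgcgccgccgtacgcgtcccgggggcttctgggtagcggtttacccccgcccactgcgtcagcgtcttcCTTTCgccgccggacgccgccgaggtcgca
Rpl38, chr11:114668510-114668609, plus strand: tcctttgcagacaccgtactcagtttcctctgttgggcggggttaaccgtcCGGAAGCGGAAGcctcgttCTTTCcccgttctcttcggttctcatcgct

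The core CGGAAG lies in 4 of these windows and CTTTC in 3. Members with all Abx libraries below Con carried such stretches too. The same window of Rpl4 held 1 CTTTC and 1 CGGAAG, and that of Rps18 held 2 CGGAAG and 0 CTTTC. RefSeq start regions were found for 61 members, with 73 start sites. CTTTC between 20 bases before and 30 after a start, on the strand of the gene, was found for 36.1% of these 61 genes and for 7.66% of all 27025 genes. CGGAAG on either strand within 300 bases was found for 67.2% of the members and 18.8% of all genes. The 22 members with CTTTC had a median log2 fold change of 0.25 and the other 39 one of 0.15, so both groups of genes were alike in sign. For CGGAAG the median was 0.18 over 41 members with it and 0.16 over 20 without it. A match of letters is a description and no site. The start of Rps10 in RefSeq, at position 27635244, lies 1425 bases inside the one in GENCODE.

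Paralogue use was compared in 8 pairs, as the level of the paralogue in percent of its main gene. Rps27 and Rps27l code for proteins of equal length, and their coding sequences (GENCODE M21) are printed with capitals at the 61 of 255 bases that differ.
Rps27: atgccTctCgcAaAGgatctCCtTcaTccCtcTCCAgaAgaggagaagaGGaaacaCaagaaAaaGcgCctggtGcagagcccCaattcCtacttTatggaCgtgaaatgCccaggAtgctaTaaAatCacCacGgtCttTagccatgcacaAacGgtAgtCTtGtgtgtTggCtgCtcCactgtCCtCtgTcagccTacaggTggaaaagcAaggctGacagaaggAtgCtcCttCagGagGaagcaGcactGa
Rps27l: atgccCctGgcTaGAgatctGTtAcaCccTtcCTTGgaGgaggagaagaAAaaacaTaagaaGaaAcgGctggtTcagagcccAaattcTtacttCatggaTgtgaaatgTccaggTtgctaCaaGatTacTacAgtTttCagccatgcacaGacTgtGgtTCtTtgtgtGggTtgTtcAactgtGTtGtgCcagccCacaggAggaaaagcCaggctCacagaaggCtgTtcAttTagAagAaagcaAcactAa

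The longest stretch shared by transcripts of the pair is 11 bases, so longer reads differ between the genes. Rps27l stood at 11.7%, 11.8% and 5.40% of Rps27 in Con and at 11.8%, 13.1% and 21.1% in Abx. Abx 1 lay above Con 1 and Con 2 by a narrow margin, with log2 ratios of −3.070 against −3.082 and −3.075. The log2 ratio was higher by 0.70 in Abx (exact two-sided permutation test, p = 0.1, the smallest possible with n = 3 per group, and 0.6 after adjustment over the 6 pairs tested). Without Con 3 the difference was 0.33.

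Rpl22 and its paralogue Rpl22l1, of which Rpl22 is needed for alpha-beta T cell development and represses Rpl22l1, were the only pair whose order varied. Rpl22 reached 26.9, 13.7 and 54.2 FPKM in Con and 69.2, 63.4 and 43.6 in Abx. Rpl22l1 stood at 49.5, 62.4 and 66.2 FPKM in Con and 32.0, 64.4 and 60.5 in Abx. Rpl22l1 thus amounted to 184%, 454% and 122% of Rpl22 in Con and 46.2%, 101.5% and 139% in Abx. The log2 ratio differed by −1.28 (exact two-sided permutation test, p = 0.2, n = 3 per group), and the libraries of the groups overlapped.

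Rpl36al exceeded the X-linked Rpl36a in all 6 libraries, at 226%, 242% and 244% of it in Con and 157%, 238% and 240% in Abx. Rpl7l1, which acts in ribosome assembly, was at 26.5%, 6.78% and 16.6% of Rpl7 in Con and 0.0851%, 15.4% and 12.3% in Abx. Its FPKM was 0.27 in Abx 1 and 17.9 to 57.3 in the other libraries. Rps4l, a pseudogene of the X-linked Rps4x, had 21.8, 30.4 and 17.8 FPKM in Con and 0.15, 0.15 and 31.9 in Abx, so the Abx libraries lay on both sides of Con. The log2 fold change of Rps4l, −2.76 ± 1.31 (SE, limma adjusted p = 0.500), therefore averaged unlike libraries.

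Paralogues known from testis or striated muscle were at or near 0. Rpl10l, a retrogene that stands in for Rpl10 in male germ cells, and Rpl3l, the form of Rpl3 in heart and skeletal muscle, were listed at 0 in all 6 libraries. Rpl39l, the testis form of Rpl39, was listed at 0, 0 and 2.96 FPKM in Con and 0.10, 0.09 and 0.24 in Abx. The coding sequences of Rpl39 and Rpl39l differ at 23 of 156 bases, in capitals here, and the longest shared stretch of their transcripts is 38 bases.
Rpl39: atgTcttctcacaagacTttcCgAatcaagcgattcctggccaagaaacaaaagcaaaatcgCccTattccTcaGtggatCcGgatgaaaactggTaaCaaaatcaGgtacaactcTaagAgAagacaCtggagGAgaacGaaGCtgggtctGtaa
Rpl39l: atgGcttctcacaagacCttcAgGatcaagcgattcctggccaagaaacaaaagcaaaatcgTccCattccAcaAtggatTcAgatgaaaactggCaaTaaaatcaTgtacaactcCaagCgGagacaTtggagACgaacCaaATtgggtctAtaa

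**Figure D5:**
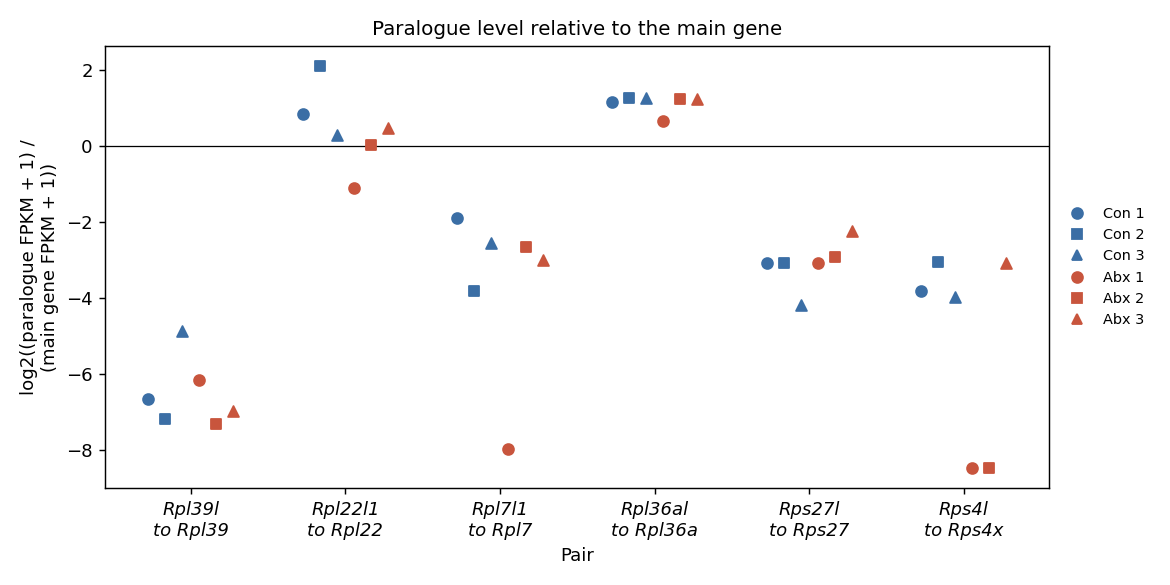
Level of each paralogue relative to its main gene as log2((paralogue FPKM + 1) / (main gene FPKM + 1)), 1 point per library, with a line at equal levels. Rpl36al lies above the line in every library, Rps27l lies between −4.19 and −2.24, and Rps4l is at −8.47 in Abx 1 and Abx 2.

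The 4 X-linked members, Rpl10, Rpl36a, Rpl39 and Rps4x, overlapped between the groups. Rps4x, a small subunit protein, reached 318, 260 and 294 FPKM in Con and 405, 406 and 276 in Abx. Xist, the RNA that coats the inactive X in females, stood at 3.78, 4.38 and 5.09 FPKM in Con and at 0 in the 3 Abx libraries. The sex of the pups is not given. In every comparison of the groups, what goes with Xist cannot be told apart from the maternal antibiotics. The part of Xist or of sex in the levels of X-linked and other members was not tested.

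Pseudogene copies can take reads from their parents. The 306 pseudogene entries summed to 3861 to 4134 FPKM in Con and 3674 to 5020 in Abx, or 0.851% to 1.06% of the total. For some parents the copies held more than the gene itself, with 811% for Rpl17, 639% for Rps12, 569% for Rpl21, 383% for Rpl7a and 339% for Rpl35a, as means over the 6 libraries. The copies also exceeded Rpl10 (173%), Rps10 (147%), Rpl9 (120%) and Rpl36a (116%), which makes 9 such parents among those listed. Rpsa, whose pseudogene entries are not in the list, was not checked in this way. The levels of these 9 parents are uncertain for that reason. So are the low rank of Rps12, the log2 fold changes of Rps10 and Rpl35a and the ratio of Rpl36al to Rpl36a. Rpl6l shares a stretch of 354 bases with Rpl6 and is 98.7% identical to it over 871 bases, so their reads cannot be cleanly told apart. Rpl38 has 2 named pseudogene entries, at 24.3% of the gene as a mean over the 6 libraries. They summed to 140, 121 and 82.0 FPKM in Con and 112, 214 and 174 in Abx. Rps27l, Rps21, Rps20 and Rplp2 have no named pseudogene entry, but copies that carry other names were not assigned to parents. Pseudogenes of any name held 7.68% to 8.01% of total FPKM in Con and 6.77% to 10.2% in Abx. Their part in the levels of the members was not tested.

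Set beside other machinery, the members' ratio to translation factors overlapped between the groups and their ratio to mitochondrial ribosomal proteins did not. The log2 ratio of summed members to 37 translation factors was 2.68, 2.59 and 2.72 in Con, against 2.77, 3.05 and 2.38 in Abx (exact two-sided permutation test, p = 0.7, n = 3 per group). The log2 ratio to 78 mitochondrial ribosomal proteins, which serve translation inside mitochondria, was 3.68, 3.55 and 3.82 in Con, against 3.44, 3.38 and 2.96 in Abx. All Abx libraries lay below Con, with a difference of −0.42 (exact two-sided permutation test, p = 0.1, the smallest possible with n = 3 per group). The mitochondrial genes themselves summed to 2065 to 2234 FPKM in Con and 2833 to 3526 in Abx. Their median log2 fold change was 0.44, and 6 were higher and 2 lower of 78 at an unadjusted p under 0.05. Against 31 proteasome genes, another large complex, the members' log2 ratio was 3.25, 3.13 and 3.59 in Con, against 3.14, 3.46 and 3.01 in Abx, and the groups overlapped, although the proteasome genes themselves summed to 2422 to 3019 FPKM in Con and 3214 to 3482 in Abx.

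Other genes of the pathway gave few single changes, and none was called at the adjusted threshold. At an unadjusted p under 0.05, translation factors had 1 higher and 1 lower of 36 tested, ribosome assembly factors 1 higher and 1 lower of 36, and RNA polymerase I, which transcribes the rRNA precursor, 2 higher and 0 lower of 11. The summed levels of 2 of these lists did not overlap between the groups. Ribosome assembly factors summed to 879 to 1019 FPKM in Con and 1099 to 1251 in Abx. RNA polymerase I genes summed to 145 to 210 FPKM in Con and 243 to 320 in Abx, although their median log2 fold change was −0.13. The growth signaling list around Myc and mTOR had 0 of 9. Among 14 other TOP mRNAs, which include Eef1a1, Eef2 and Tpt1, 1 was higher and 0 lower, with a median log2 fold change of 0.13. Eef1a1, the elongation factor that delivers aminoacyl-tRNA, had 937, 962 and 1194 FPKM in Con and 746, 1017 and 1034 in Abx. Of the 6 ribosomal proteins that the naming rule leaves out, none passed. Rps3a1, a small subunit protein, was the most abundant of them with 908, 733 and 942 FPKM in Con and 841, 1080 and 853 in Abx, and Fau, which carries Rps30 as a fusion, was at 370, 365 and 324 in Con and 433, 636 and 262 in Abx.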

How the data were processed

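Each library came from 1000 sorted cells amplified with Smart-seq v4. The authors trimmed reads with Cutadapt 1.9, mapped them with HISAT2 2.0.4 and deposited FPKM values per gene from StringTie 1.3.4d, so they were already scaled to gene length and depth. Their methods name a human Ensembl release 96 annotation, and the submitters' processing notes name Bowtie 0.12.2, mm8 and mm9 with no role, while the identifiers and symbols are those of mouse GENCODE M21. Read counts were not used here, so no counting error is given.

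Members and lists were chosen with earlier results of these data known. Genes with 1 FPKM or more in at least 3 of 6 libraries were compared on log2(FPKM + 1), where folds of low genes are understated, with limma 3.58.1 (R 4.3.3, lmFit and eBayes with trend, two-sided, Benjamini-Hochberg adjustment over 8718 genes), and the fit was tested on simulated data. Values with 1 number per library (shares, ratios and SDs) were compared with an exact permutation test of the difference in means. Paralogue ratios used a pseudocount of 1. Genes named with values were the 3 most and 3 least abundant members per subunit, the 5 largest changes in each direction among members with no overlap between groups, 8 paralogue pairs, members listed at 0 and members with textbook roles. Rps9, Rps15, Rps16, Rpl7a, Rpl17, Rpl21 and Rpl35a were named after their values were seen. One member and another gene that these rules name are not reported here, but they stay in the sums, counts and medians. Alternatives were other pseudocounts, filters, scalings and denominators, robust variance, a replicate block and each library left out. Sequences came from RefSeq (GRCm38.p6) and GENCODE M21, and tables were handled with Python 3.11.15.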

Additional observations from a re-analysis of the deposited data

How the results depend on the processing

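The results rest on 3 libraries per group and on FPKM without read counts. Over the pseudocounts, filters, scalings and omissions tried, 0 members were called in either direction. Few genes of any kind were called: of the 6025 to 19564 genes tested in these fits, 0 to 5 were called higher and 0 to 2 lower. The number of members higher in Abx at an unadjusted p under 0.05 was 7, and it was 3 to 17 with 1 library left out. It was 3 of 43 over tested members with no exon overlap (background 4.74%), an alternative chosen after seeing the data. The number lower was 0, and 0 to 1 with a library left out. Of the 7801 to 8266 genes tested with a library left out, 308 to 468 were higher and 204 to 822 lower. The median log2 fold change of the members stayed above 0, at 0.0738 to 0.300 with a library left out. The median of all genes moved from −0.06 to −0.17 with a pseudocount of 0.01 and to 0.03 with quantile normalization.

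Differences that were within the spread between libraries changed sign. With a library left out, the difference in share of total FPKM ran from −0.0543 to 0.700 percentage points for all members and from −0.268 to 0.203 for the large subunit, whose difference was 0.0562 without mitochondrially encoded genes and 0.0486 with pseudogene entries added. The difference in SD over members at 10 FPKM or more in every library was −0.0774 for all members, where the groups did not overlap (exact p = 0.1, the smallest possible, against 0.4 over all 83), −0.0945 for the large and −0.0575 for the small subunit, and the SD of the large subunit ran from −0.0276 to 0.0308 with a library left out. In the same way the log2 ratio of members to translation factors ran from −0.0876 to 0.244 and that to the proteasome from −0.247 to 0.0145, that of Rpl39l to Rpl39 from −1.05 to 0.10 and that of Rpl36al to Rpl36a from −0.286 to 0.0115. The large to small subunit difference stayed between −0.22 and −0.14 with a library left out. It was 0.0168 with medians over members at 10 FPKM or more in every library, an alternative chosen after seeing the data. The cause of these sign changes was not tested. Of 42 named genes tested, 17 changed sign under 1 setting or more, in 33 of 588 fits. None of those among the 42 whose fold change is given above did so. Rps16, Rps9 and Rpl35a were not among the 42.

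Same-numbered libraries deviated with correlations of −0.02, −0.03 and 0.01, against −0.03 to 0.05 for libraries of unlike number. With 3 libraries per group these values cannot show whether the replicate numbers pair the samples. With the replicate number as a block, an unadjusted p under 0.05 was reached by 5 members with higher and 0 with lower values in Abx, and 0 were called. Over all 8718 genes tested in that fit, 357 were higher and 501 lower, and 0 were called. The large to small subunit difference of −0.19 then had an exact p of 0.25, the smallest that pairing allows.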

Other observations

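Pseudogene entries named after ribosomal proteins were mostly low, with 120 of 306 passing the filter on low values, and at an unadjusted p under 0.05 there were 2 higher and 1 lower in Abx. The 3 entries named after Rpl27, chosen after their values were seen, summed to 12.8, 11.5 and 15.5 FPKM in Con and 124, 99.2 and 49.8 in Abx, with no overlap between the groups. Rpl27 itself, a large subunit protein, had 240, 268 and 255 FPKM in Con and 428, 380 and 216 in Abx, which overlapped. The cause of the difference between the copies and their parent was not tested.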
